A study of Mus musculus with 13 samples.

Results

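Transcripts of the glycolytic pathway and of the response to low oxygen were profiled in meninges dissected from the cerebrum of newborn mice. The list held 34 genes in 2 classes, 19 of glycolysis and its regulators and 15 of oxygen sensing and hypoxia response. It was set by name, with earlier results of these data known. Of the 34 genes, 33 were measured (18 glycolytic and 15 of the hypoxia class) among 19938 genes tested on the arrays. The glycolytic Gpi1 was not analysed here, since no probe set was named for it alone. Each gene is represented by the brightest probe set that carries its symbol only.

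The meninges came from a single litter on a C57BL6 background, 1 mouse per array. The 4 mutants were Pdgfc-/-; Pdgfra GFP/+, that is, they lacked the ligand PDGF-C and carried 1 null allele of its receptor that expresses GFP in its place. The 9 controls were the other littermates, pooled: mice with both Pdgfra alleles intact that were Pdgfc-/-, Pdgfc+/- or Pdgfc+/+, and Pdgfra GFP/+ mice that were Pdgfc+/- or Pdgfc+/+. Which control had which of these genotypes is not given in the labels, and a control can share either the Pdgfc deletion or the Pdgfra allele with the mutants. The tissue is a mixture of cell types measured in bulk, so fewer cells of a type and less RNA per cell cannot be told apart.

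Pdgfc read 22.8 to 29.3 intensity units in mutants, 5.88 in control 2 and 103 to 275 in the other 8 controls. The median intensity of an array was 56.0 to 89.7 in mutants and 44.1 to 89.0 in controls, so results are given for the values as deposited and, for the members and the lists of related genes, also with each array centred on its own median, which took the all-gene median of the log2 fold change from 0.0043 to -0.09. Eif2s3y, a Y-linked gene, read 359 to 556 in all 4 mutants. Among controls, numbers 1, 5 and 8 read 408 to 515 and the remaining 6 read 1.64 to 3.76, so sex is not balanced between the groups. Summed over 12 genes of meningeal fibroblasts, the intensity was 24436 to 36543 in mutants and 27830 to 38309 in controls, so the markers of the labelled tissue were present in every mouse. Singly they did not stay level: 2 of the 12 rose and 4 fell in the test described below (0 and 1 with unequal variances). Of all tested genes 8.58% rose and 6.31% fell. Neuronal transcripts moved strongly between the groups. All 17 pan-neuronal markers rose, and their summed intensity was 16729 to 20452 in mutants against 1777 to 4927 in controls.

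Glycolysis splits glucose into pyruvate in the cytosol and yields ATP without oxygen. Most of its steps are catalysed by several paralogous enzymes, some of them enriched in brain, muscle or liver, and lactate dehydrogenase regenerates NAD+ from pyruvate. Under low oxygen the prolyl hydroxylases that mark hypoxia-inducible factors (HIFs) for breakdown lose activity, and HIFs then activate genes of glycolysis, pH control, collagen modification and vessel growth. In the perinatal brain this response is tied to the ingrowth of vessels from the meninges.

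Neither class moved as a block. A gene is said to have risen or fallen where its adjusted p in limma, a linear model that shares the estimate of spread across genes, was under 0.05 over all tested genes. Of the 18 glycolytic genes 3 rose, where 8.58% of all tested genes did, and 5 fell, where 6.31% of all tested genes did. Of the 15 hypoxia genes 1 rose and 2 fell. With arrays centred on the median, 3 glycolytic genes rose and 8 fell, and 1 hypoxia gene rose and 6 fell, against 9.07% of all genes rising and 14.4% falling. The median log2 fold change was -0.07 for the glycolytic class and -0.15 for the hypoxia class (-0.17 and -0.25 centred). The glycolytic median turned to 0.04 with arrays centred on reference genes, where the hypoxia median was -0.04 and that of all genes 0.12. The 10 reference genes were not all level themselves. As deposited 0 of them rose and 2 fell, with a median log2 fold change of -0.08.

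**Figure D1:**
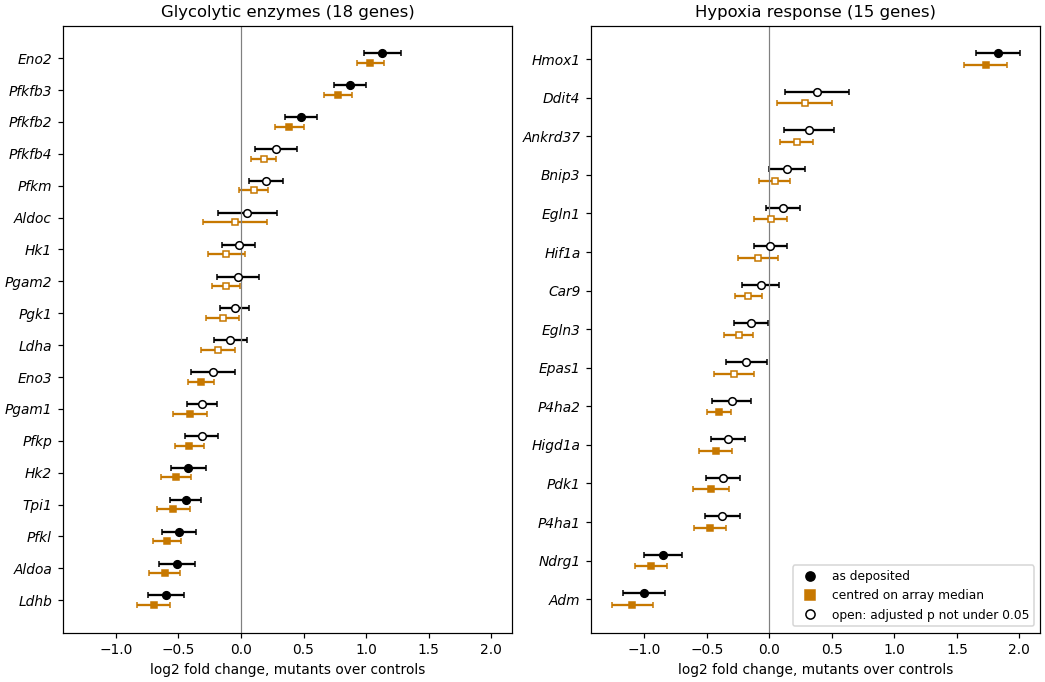
Log2 fold change (mutants over controls, x axis) of each measured gene of the glycolytic class (left) and the hypoxia class (right), with standard error bars. Black circles are values as deposited and orange squares values centred on the array median, and open symbols mark an adjusted p not under 0.05. Hmox1, Eno2 and Pfkfb3 lie far to the right of the other genes, and Adm and Ndrg1 far to the left.

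The mean log2(intensity + 16) of the glycolytic genes in a mouse was 8.72 ± 0.19 (SD, n = 4) for mutants and 8.75 ± 0.13 (SD, n = 9) for controls. For the hypoxia genes it was 8.21 ± 0.18 (SD, n = 4) and 8.27 ± 0.16 (SD, n = 9). After subtraction of the array median it was 1.78 ± 0.15 against 1.91 ± 0.14 for the glycolytic class and 1.27 ± 0.14 against 1.43 ± 0.145 for the hypoxia class (SD, n = 4 and n = 9). For both classes the groups overlapped on both scales.

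**Figure D2:**
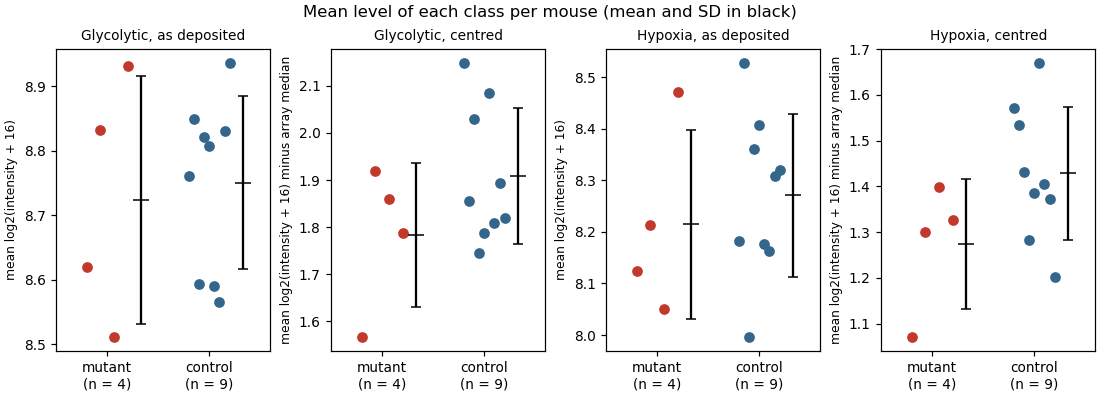
Mean log2(intensity + 16) over the genes of each class in each mouse (y axis), as deposited and after subtraction of the array median, for 4 mutants (red) and 9 controls (blue), with the group mean and SD in black. Mutants and controls overlap in all 4 panels.

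The letters that HIFs bind, ACGTG or GCGTG, were looked up in RefSeq promoter windows (250 bases before to 50 after a start, mouse build GRCm38.p6), on both strands, so that CACGT and CACGC are the same matches read from the other side. The 6-letter palindrome CACGTG, which other factors also bind, counts as 2 overlapping matches. A total of 30 measured genes had a window, and Ndrg1, Epas1 and Hmox1 did not. Of their 42 windows 83.3% held a match, against 51.7% of the windows of tested genes and 43.8% of all 32851 windows. By gene, 2 of 3 that rose, 5 of 6 that fell and 20 of 21 that did not pass the test had a window with a match. That is 90.0% of the 30 genes, against 55.3% of tested genes with a window and 46.7% of all genes with one. The stretches of 150 bases directly upstream of the start are shown for Adm, which fell, for both starts of Pfkfb3, which rose, for both starts of Ldha, which did not pass the test, and for Eno2, which rose and has no match. Capitals mark the matches.
Adm, chr7:110627507-110627656, plus strand: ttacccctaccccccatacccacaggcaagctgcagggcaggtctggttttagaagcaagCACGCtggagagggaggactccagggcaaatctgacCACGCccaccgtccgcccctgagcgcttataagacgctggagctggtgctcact
Pfkfb3, chr2:11502091-11502240, minus strand: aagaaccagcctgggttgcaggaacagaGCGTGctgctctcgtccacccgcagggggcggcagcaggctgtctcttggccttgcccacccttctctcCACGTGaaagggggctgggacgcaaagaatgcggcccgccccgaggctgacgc
Pfkfb3, chr2:11553930-11554079, minus strand: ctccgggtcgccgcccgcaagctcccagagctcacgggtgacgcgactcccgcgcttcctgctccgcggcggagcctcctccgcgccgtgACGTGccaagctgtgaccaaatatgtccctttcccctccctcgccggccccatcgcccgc
Ldha, chr7:46845654-46845803, plus strand: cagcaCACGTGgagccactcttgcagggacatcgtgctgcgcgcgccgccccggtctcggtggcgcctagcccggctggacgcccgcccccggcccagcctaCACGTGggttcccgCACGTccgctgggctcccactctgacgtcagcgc
Ldha, chr7:46846932-46847081, plus strand: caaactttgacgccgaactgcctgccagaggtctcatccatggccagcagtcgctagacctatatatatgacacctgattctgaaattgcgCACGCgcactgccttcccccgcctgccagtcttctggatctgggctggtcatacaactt
Eno2, chr6:124769674-124769823, minus strand: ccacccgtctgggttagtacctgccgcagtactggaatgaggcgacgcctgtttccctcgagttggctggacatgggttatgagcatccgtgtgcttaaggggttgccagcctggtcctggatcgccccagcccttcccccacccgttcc
The same letters thus stand upstream of genes that rose, genes that fell and genes that did not pass the test. A match is a description of the sequence and was not tested as a binding site.

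Hmox1, which encodes the inducible heme oxygenase that breaks heme into biliverdin, iron and carbon monoxide, rose the most of the 33 genes. Its intensity was 1248, 811, 1599 and 1384 in mutants 1 to 4, and 254, 327 and 447 (lowest, median and highest) in controls. The lowest mutant was well above the highest control, and every mutant lay above every control for 6.4% of all tested genes. Hmox1 was 3.55-fold higher in mutants (log2 fold change 1.83, or 1.73 centred, standard error 0.18, limma adjusted p = 1.76e-07). Mutant 2 was the lowest of the 4. Beside it, none of 6 measured erythroid markers passed the limma test (0 at an unadjusted p under 0.05, and 0 with unequal variances). Their summed intensity was 403 to 588 in mutants and 404 to 829 in controls. These were 6 of 12 listed (Hbb-bh1, Alas2, Slc4a1, Epb42, Klf1 and Hemgn), with Hbb-bh1 the only globin gene. Alas2 was the brightest, at a mean of 280 in mutants and 340 in controls. The paper reports frequent bleedings in mutant brains, and these markers do not measure the blood content of the samples. Of 11 macrophage and microglia markers 10 fell, with a summed intensity of 3238 to 5996 against 7208 to 10037. With unequal variances 1 of these macrophage markers fell, and after centring 11 did. The part of red cells or macrophages in the level of Hmox1 was not tested.

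Adm and Ndrg1, textbook targets of HIFs, went the other way. Adm, which encodes the vasodilator and vessel growth peptide adrenomedullin, was at 81.8, 116, 83.4 and 116 in mutants 1 to 4 and at 150, 232 and 293 (lowest, median and highest) in controls. Every mutant lay below every control, as for 3.04% of all tested genes, and Adm was 2.0-fold lower (log2 fold change -1.0, standard error 0.17, limma adjusted p = 1.95e-04; -1.10 centred). Ndrg1, a stress-response gene of the N-myc downstream regulated family, was at 476, 548, 530 and 835 in mutants and at 825, 1088 and 1312 in controls. Mutant 4 reached the lowest control, and the other 3 mutants lay below all controls. Ndrg1 was 1.80-fold lower (log2 fold change -0.85, standard error 0.16, limma adjusted p = 5.10e-04; -0.95 centred). Endothelial markers fell as well, 7 of 11 of them, with a summed intensity of 5657 to 7389 in mutants and 7883 to 16611 in controls. So did 10 of 11 macrophage and microglia markers, 4 of 12 fibroblast markers (2 rose) and 5 of 11 astrocyte markers (0 rose). With unequal variances 7 endothelial markers fell, and 1 in each of the macrophage, fibroblast and astrocyte lists. The part of any of these cell types in the fall of Adm and Ndrg1 was not tested.

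The oxygen sensors and HIF subunits of the hypoxia class, Egln1, Egln3, Hif1a and Epas1, did not pass the test on either scale. Arnt2, a partner of HIF subunits outside the class, rose, as given below. Hif1a, the gene of the broadly expressed HIF subunit, was at 547 ± 75.8 (SD, n = 4) for mutants and 544 ± 70.7 (SD, n = 9) for controls (log2 fold change 0.01, standard error 0.13). Epas1, which encodes the HIF subunit prominent in endothelium, was at 490 ± 92.2 against 562 ± 121 (-0.18, standard error 0.16; n = 4 and n = 9). The prolyl hydroxylase genes Egln1 and Egln3, of which Egln3 is itself induced by HIFs, had log2 fold changes of 0.11 and -0.15 (standard error 0.14 and 0.13). Arrays report transcripts only, and HIF subunits are controlled mainly through protein stability.

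Among the other genes of the hypoxia class, none passed the test as deposited and 4 fell after centring. P4ha1 and P4ha2, subunits of the collagen prolyl hydroxylases, had log2 fold changes of -0.38 and -0.30 as deposited (adjusted p = 0.0780 and 0.264 in limma), and fell at -0.47 and -0.40 centred (0.00874 and 0.00438). Pdk1, the kinase that holds back pyruvate dehydrogenase, was at 255, 353, 280 and 421 in mutants 1 to 4 and at 356, 429 and 496 (lowest, median and highest) in controls. Its change of -0.37 on the log2 scale as deposited did not pass (adjusted p = 0.0801) and fell at -0.47 centred (0.0231). Higd1a, a mitochondrial protein gene induced by hypoxia, had -0.33 (adjusted p = 0.116) and fell at -0.43 centred (0.0249).

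Bnip3, Ankrd37 and Ddit4 had positive log2 fold changes of 0.14, 0.32 and 0.38 that did not pass the test (limma adjusted p = 0.740, 0.410 and 0.469). Bnip3 acts in mitophagy and Ddit4 restrains the mTOR kinase. Ddit4 had the largest standard error of the hypoxia class as deposited (0.26), at 386, 305, 318 and 724 in the mutants and from 175 to 550 in controls. Car9, the membrane carbonic anhydrase used as a marker of chronic hypoxia, was at 17.1 ± 2.61 (SD, n = 4) for mutants and 19.2 ± 6.51 (SD, n = 9) for controls, close to the constant of 16 added before the log, where the log2 scale understates differences.

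**Figure D3:**
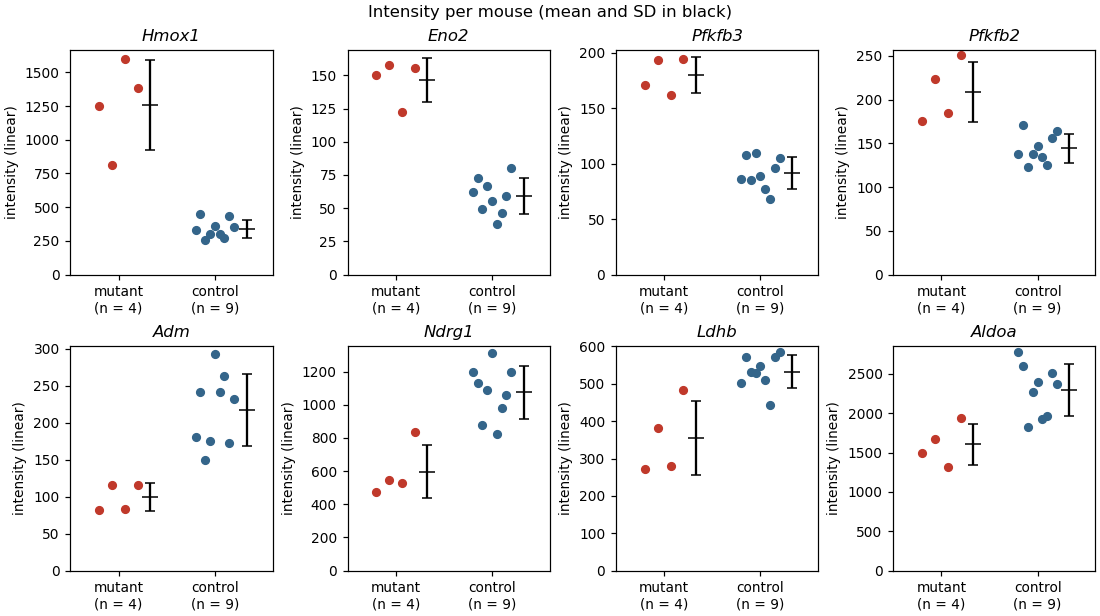
Intensity on a linear scale (y axis, from 0) in each of the 4 mutants (red) and 9 controls (blue) for 4 genes that rose (top) and 4 that fell (bottom), with the group mean and SD in black. Mutants lie above all controls for Hmox1, Eno2, Pfkfb3 and Pfkfb2 and below all controls for Adm, while mutant 4 reaches the controls for Ndrg1, Ldhb and Aldoa.

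In glycolysis, the 3 genes that rose were Eno2 and 2 bifunctional regulators of phosphofructokinase. Eno2, the neuronal enolase used as a neuron marker, was at 150, 158, 122 and 156 in mutants 1 to 4 and at 37.8, 59.5 and 80.6 (lowest, median and highest) in controls. The groups did not overlap, with 6.4% of all tested genes having every mutant above every control, and Eno2 was 2.19-fold higher (log2 fold change 1.13, standard error 0.15, limma adjusted p = 1.23e-05; 1.03 centred). Pfkfb3, whose product makes the sugar bisphosphate that activates phosphofructokinase, was at 171, 193, 162 and 194 in mutants and at 67.9, 88.7 and 110 in controls. It was 1.83-fold higher (log2 fold change 0.87, standard error 0.13, adjusted p = 5.31e-05; 0.78 centred), again without overlap.

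Pfkfb2, a paralog best known from heart, was 1.40-fold higher, at 176, 224, 185 and 250 in mutants 1 to 4 against 123, 138 and 171 in controls (lowest, median and highest). Its log2 fold change was 0.48 (limma adjusted p = 0.0125; 0.38 centred). Pfkfb4, the remaining measured paralog, stood at 0.28 on the log2 scale (adjusted p = 0.382). All 17 pan-neuronal markers rose too, with the summed intensities given above, and the part of neurons in the rises of Eno2, Pfkfb3 and Pfkfb2 was not tested.

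The 5 glycolytic genes that fell were Hk2, Pfkl, Aldoa and Tpi1, of the upper stretch of the pathway, and Ldhb, a subunit of the enzyme that acts on pyruvate and lactate. Hk2, the insulin-responsive hexokinase, was 1.34-fold lower (log2 fold change -0.42, limma adjusted p = 0.0476), at 101 to 141 in mutants and 140 to 232 in controls. Pfkl, the liver-type phosphofructokinase, was 1.41-fold lower (-0.50, 0.0175), at 200 to 263 against 240 to 394. Aldoa, the ubiquitous and muscle aldolase, was 1.43-fold lower (-0.51, 0.0164), at 1493, 1668, 1322 and 1936 in mutants and 1821, 2371 and 2785 (lowest, median and highest) in controls.

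Tpi1, which interconverts the triose phosphates and has no paralog in the list, was 1.36-fold lower (log2 fold change -0.44, limma adjusted p = 0.0210), at 1091, 1427, 1036 and 1361 in mutants 1 to 4 and at 1451 to 1965 in controls. Ldhb, the lactate dehydrogenase subunit that favours oxidation of lactate, was 1.52-fold lower (-0.60, standard error 0.14, adjusted p = 0.00563), at 271, 381, 281 and 483 in mutants and 442, 532 and 585 in controls. Of these 5 genes, Tpi1 alone had no overlap between the groups as deposited, where every mutant lay below every control for 3.04% of all tested genes. After centring every mutant lay below every control for Hk2, Pfkl, Aldoa and Ldhb, as for 9.08% of all genes, and the groups overlapped for Tpi1. In the hypoxia class the same held after centring for Adm, Ndrg1, P4ha2 and Pdk1. On that scale Eno2, Pfkfb3 and Hmox1 were the measured members with every mutant above every control, as for 6.72% of all genes.

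The other 10 glycolytic genes did not pass the test as deposited. Ldha, the subunit that favours lactate production, was at 1736 ± 262 (SD, n = 4) for mutants and 1841 ± 218 (SD, n = 9) for controls (log2 fold change -0.09, standard error 0.13), and Pgk1, which makes the first ATP of the pathway, at 1715 ± 203 against 1770 ± 128 (-0.05, standard error 0.12). Pgam1, Pfkp and Eno3, which encode a phosphoglycerate mutase, the platelet-type phosphofructokinase and the muscle enolase, had log2 fold changes of -0.31, -0.31 and -0.22 and fell after centring (-0.41, -0.41 and -0.32, adjusted p = 0.0373, 0.0147 and 0.0315 in limma). Pfkm, the muscle-type phosphofructokinase, stood at 0.20 on the log2 scale (limma adjusted p = 0.490), and rose only with arrays centred on reference genes (0.31, 0.0343). Of those 10 reference genes 2 fell as deposited.

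Aldoc, the aldolase of brain, had the largest standard error of the glycolytic class on both scales, at 235, 375, 401 and 692 in mutants and from 284 to 569 in controls (log2 fold change 0.05, standard error 0.23). Pgam2, the muscle mutase, was dim, at 35.8 ± 8.28 (SD, n = 4) and 37.3 ± 11.5 (SD, n = 9). Of 14 skeletal muscle markers 1 rose and none fell, with a summed intensity of 769 to 1732 in mutants and 638 to 1268 in controls. The count of falls was also 0 in limma at an unadjusted p under 0.05 and with unequal variances, and 1 after centring. Of 11 astrocyte markers 5 fell and none rose (2 rose at an unadjusted p under 0.05 in limma), while with unequal variances 1 fell and 0 rose. Their log2 fold changes were mixed in sign, 5 positive and 6 negative. The summed intensity was 9649 to 14684 in mutants and 12410 to 17189 in controls. A large part of that sum was Gja1 alone, at 6241 ± 1149 (SD, n = 4) for mutants and 8179 ± 801 (SD, n = 9) for controls. The part of muscle or astrocytes in the levels of Aldoc and Pgam2 was not tested.

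Hk1 and Ldhb are among 6 genes with several probe sets. For Hk1, the main hexokinase of brain, the brightest probe set read 4537 ± 758 (SD, n = 4) among mutants against 4570 ± 478 (SD, n = 9) among controls (log2 fold change -0.02), while the dimmer one was at 334 ± 38.8 against 230 ± 39.4 and rose (0.51, limma adjusted p = 0.0144). The 2 probe sets of Hk1 thus disagree, and no direction is given for this gene. The probe sets of Ldhb agree, with the dimmer one at -0.57 (adjusted p = 0.00760). For Bnip3, Higd1a, Pgam1 and Pgk1 no probe set passed the test, and those of Bnip3 differed in sign (0.14 and -0.12).

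Paralogs of the same step were then compared within each array, where a factor common to the whole array largely cancels, though not for dim genes, since 16 was added before the log. Of 13 such pairs, 7 differed between the groups by exact permutation (two-sided, 715 possible splits into 4 and 9 mice, adjusted over the 13 pairs). The pairs join members chosen with earlier results of these data known, and are not every possible pair. Pfkfb2 with Pfkfb4 was not among them. Pairs that share a gene, as those of the phosphofructokinases and of Pfkfb3 do, are not independent of each other. A ratio shows that the paralogs changed unequally and says nothing on which one did. The ratio of Eno2 to Eno3 was 2.56-fold higher in mutants (log2 difference 1.36), with values of 0.21 to 0.78 in mutants and -1.26 to -0.55 in controls (exact p = 0.00140, the smallest the design allows, adjusted p = 0.00606).

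Among the phosphofructokinases, the liver and platelet types were both lower relative to the muscle type in mutants. The log2 ratio of Pfkl to Pfkm was -1.43 ± 0.11 (SD, n = 4) for mutants and -0.73 ± 0.09 (SD, n = 9) for controls, and that of Pfkp to Pfkm -0.38 ± 0.12 against 0.13 ± 0.07, both without overlap (exact permutation p = 0.00140 for each, adjusted p = 0.00606). The ratio of Pfkp to Pfkl differed less, at 1.05 ± 0.07 against 0.87 ± 0.07 (exact permutation p = 0.00420, adjusted p = 0.00779). That ratio overlapped between the groups.

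The ratio of Ldhb to Ldha fell by 0.51 on the log2 scale (exact permutation p = 0.00280, adjusted p = 0.00606), from -1.75 ± 0.15 (SD, n = 9) for controls to -2.27 ± 0.25 (SD, n = 4) in mutants, with overlap. That of Pfkfb3 rose against Pfkfb2 by 0.39 and against Pfkfb4 by 0.60 (exact permutation p = 0.00280 and adjusted p = 0.00606 for each). The pairs of Hk1 with Hk2 (log2 difference 0.40, adjusted p = 0.05), Aldoc with Aldoa (0.56, 0.0909), Egln1 with Egln3 (0.25, 0.0909), Pgam1 with Pgam2 (-0.29, 0.217), Hif1a with Epas1 (0.19, 0.279) and P4ha1 with P4ha2 (-0.07, 0.620) did not pass this permutation test. The pair of Hk1 with Hk2 passed without the 4 arrays of lowest median (0.63, adjusted p = 0.0221) and with a constant of 1 (0.45, 0.0409). This pair used only the brighter of the Hk1 probe sets, which disagree. Against controls 1, 5 and 8 only, with 35 splits and a smallest exact p of 0.0286, none of the 13 pairs passed after adjustment (lowest adjusted p = 0.0743), and the 7 kept their direction.

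**Figure D4:**
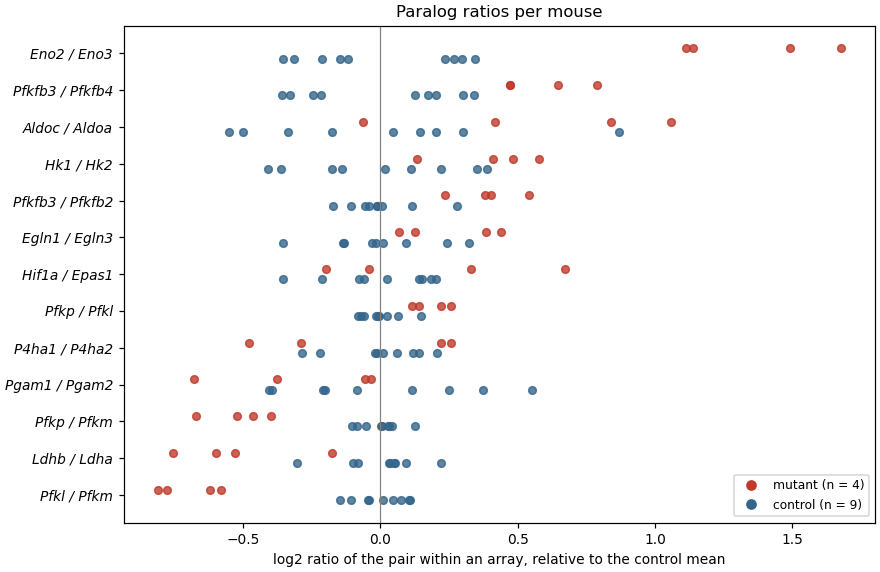
Log2 ratio of each paralog pair within an array, relative to the mean of the controls (x axis), for 4 mutants (red) and 9 controls (blue). Mutants lie wholly to the right of the controls for Eno2 over Eno3 and just outside them for Pfkfb3 over Pfkfb4, and wholly to the left for Pfkp over Pfkm and Pfkl over Pfkm.

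Other genes of the same pathways were read from lists written by hand, with earlier results of these data known. Of 21 further measured genes of glycolysis and gluconeogenesis 1 rose and 4 fell, with a median log2 fold change of -0.04, where 8.58% of all genes rose and 6.31% fell. After centring 1 rose and 5 fell (median -0.14), against 9.07% and 14.4% of all genes, and with unequal variances 1 rose and 0 fell. Pgm2l1, a relative of phosphoglucomutase expressed in brain, was 1.94-fold higher (limma adjusted p = 4.13e-05). The phosphoglucomutase gene Pgm1 was 1.54-fold lower (0.00234), the hexokinase gene Hk3 1.39-fold lower (0.0333) and G6pc3, a subunit of glucose phosphatase, 1.36-fold lower (0.0181).

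At the entry of pyruvate into mitochondria 1 of 11 genes rose and 2 fell, with a median of -0.17, against the same shares of all genes. After centring 1 rose and 4 fell (median -0.27), and with unequal variances 1 rose and 0 fell (5 fell at an unadjusted p under 0.05 in limma). Pdp1, the phosphatase that activates pyruvate dehydrogenase, was 1.76-fold higher (limma adjusted p = 1.47e-04), while its opposing kinase Pdk2 was 1.38-fold lower (0.0293) and Pdhb, a subunit of the enzyme itself, 1.33-fold lower (0.0420). Dlat, the acetyltransferase of the complex, stood at -0.39 on the log2 scale (0.0701).

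Of 45 further genes of the hypoxia response and its regulation 5 rose and 6 fell, with a median of -0.01, again beside 8.58% and 6.31% of all genes. After centring 5 rose and 14 fell (median -0.11), beside 9.07% and 14.4% of all genes, and with unequal variances 3 rose and 1 fell. Vldlr, a lipoprotein and reelin receptor, was 4.52-fold higher (limma adjusted p = 1.39e-08) and Arnt2, the neuronal partner of HIF subunits, 2.70-fold higher (5.30e-08). Ppp1r3b, a glycogen-targeting phosphatase subunit, was 4.2-fold lower (2.29e-07) and the transferrin receptor gene Tfrc 2.61-fold lower (2.91e-05). The pan-neuronal markers rose as given above, and their part in the rises of Vldlr and Arnt2 was not tested.

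The rises of Hmox1, Eno2 and Pfkfb3 and the fall of Adm kept an adjusted p under 0.05 in each refit named in the description of the processing. The other 7 calls each lost it in at least 1 refit. Against only controls 1, 5 and 8, which share the sex pattern of the mutants, the log2 fold changes were -0.40 for Hk2, -0.60 for Pfkl, -0.53 for Tpi1, -0.63 for Ldhb and 0.45 for Pfkfb2, and none of these passed (limma adjusted p = 0.291, 0.0503, 0.110, 0.0635 and 0.203). Aldoa (-0.68, 0.0245) and Ndrg1 (-1.0, 0.00114) passed there. With unequal variances, the genes Aldoa, Ndrg1, Hk2, Tpi1, Ldhb and Pfkfb2 lost the call (adjusted p = 0.103, 0.0953, 0.0989, 0.156, 0.25 and 0.121). Leaving out mutant 1 or 3 took it from Aldoa (0.0591 and 0.0770), Pfkl (0.0727 and 0.0602) and Tpi1 (0.0893 and 0.0882), and leaving out mutant 2 or 4 from Pfkfb2 (0.0517 and 0.0611). Hk2 lost it without any 1 of the 4 mutants or of controls 2, 4, 5, 7, 8 and 9 (0.0534 to 0.204).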

How the data were processed

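Total RNA of dissected cerebral meninges of 4 mutants and 9 controls was measured on the Affymetrix array Mouse Gene 1.0 ST. The authors summarised raw data with PLIER and deposited linear intensities. The version, background step and scaling between arrays are not given in the sources used here. Array medians differ, so the values were read as not set to 1 distribution. Arrays have no read depth, and the number of mice limits the precision.

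Of 35557 probe sets, 21789 carry 1 gene symbol in the platform's annotation, 1621 several and 12147 none. The brightest probe set per symbol was used (19938 genes), as log2(intensity + 16), so folds of dim genes are understated. Mutants and controls were compared with limma 3.58.1 (lmFit, eBayes, two-sided, R 4.3.3) with Benjamini-Hochberg adjustment over all genes. Paralog ratios within an array were tested by two-sided exact permutation. Scripts were tested on simulated data. The members and lists were chosen with earlier results of these data known, and every measured member is named. Genes that are no members are named from the marker lists or as the 4 smallest adjusted p of each companion list.

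Alternatives were quantile normalization, centring by the median of each array or by 10 reference genes, constants of 1 and 32, leaving out the dimmest 25% of genes, averaging the probe sets of a gene, the t-test of the methods, unequal variances, an intensity trend with robust variances, the Xist level as a covariate, controls of the mutants' sex pattern only, the replicate number as a block, leaving out the 4 arrays of lowest median, and leaving out each mouse. Each probe set on its own, and centring together with controls of 1 sex, were added after seeing the data. Deviations from the group means of mice with the same number correlated at -0.34, 0.16, 0.31 and -0.09, so mice were treated as unpaired.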

Additional observations from a re-analysis of the deposited data

Results flagged for a closer look

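Control 7 had an intensity of 1476 for Pgk1, the lowest of the 9 controls, and its gap to the next control was 0.6045 of the range of the group on the log2 scale. It was the only value to stand apart this way in 70 groups checked, and chance flags about 1 in 20 such groups.

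The dimmer probe set of Hk1, which the comparison did not use, rose in mutants (log2 fold change 0.51, limma adjusted p = 0.0144), at 334 ± 38.8 (SD, n = 4) against 230 ± 39.4 (SD, n = 9). The brighter one had a log2 fold change of -0.02.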

How the results depend on the processing

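No called gene or paralog ratio changed its sign under an alternative. Of all genes, 2968 were called, against 4670 centred on the array median, 6285 with quantile normalization, 1539 with unequal variances, 1749 with the Xist level as a covariate, 1834 with controls of the mutants' sex pattern, and 812 by the methods' t-test at their fold and unadjusted p. The 5 falls of the glycolytic class became 8 centred on the median or with quantiles, 2 with the Xist covariate, 1 with controls of the mutants' sex pattern or unequal variances, and 0 by the methods' t-test at their fold, which left 1 of its 3 rises. The 2 falls of the hypoxia class became 6 centred on the median or with quantiles, 4 with centring and controls of 1 sex or with robust variances and a trend, and 1 with unequal variances or by the methods' t-test at their fold. With centring and controls of 1 sex the glycolytic median was -0.23. Controls of 1 sex also leave fewer mice, so sex and number of mice cannot be told apart there. The cause of these changes was not tested.

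With the replicate number as a block, which is no pairing here, 1829 genes were called, and of the glycolytic class 2 rose and 0 fell, while 1 hypoxia gene rose and 2 fell. Leaving out each mouse in turn gave 2272 to 3013 called genes, 2 to 3 glycolytic rises and 1 to 5 falls (1 without mutant 1 or mutant 3), and 1 hypoxia rise with 2 to 3 falls. The class medians ran from -0.17 to 0.0087 for glycolytic and from -0.21 to -0.07 for hypoxia genes. Signal limits what can be said of Car9, which lay near the constant added before the log.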

Other observations

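A further list of 20 genes of heme breakdown, iron handling and the oxidative stress response was written after the rise of Hmox1 had been seen. Of these, 1 rose and 6 fell, where 8.58% of all tested genes rose and 6.31% fell. After centring 1 rose and 8 fell, against 9.07% and 14.4% of all genes. The median log2 fold change was -0.17 (-0.27 centred). Tfrc is also in the list of further hypoxia genes. The gene that rose was Srxn1, which restores oxidised peroxiredoxins (0.42, limma adjusted p = 0.0314). The biliverdin reductase genes Blvra and Blvrb, which act on the product of heme oxygenase, fell by 0.74 and 0.63 on the log2 scale (0.00118 and 0.00196). The iron exporter Slc40a1 fell by 0.96 (3.93e-04), Tfrc by 1.38, the cystine transporter Slc7a11 by 1.11 (2.12e-05) and Nfe2l2, which encodes the transcription factor NRF2, by 0.77 (0.0127). Hmox2, the constitutive heme oxygenase, had a log2 fold change of -0.32 (0.125), and the NRF2 target Nqo1 one of -0.28 (0.317).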
